A study of Rattus norvegicus with 12 samples.

Results

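The 10 genes described here are protein-coding genes of the mitochondrial genome: mt-Nd1, mt-Nd2, mt-Nd3, mt-Nd4 and mt-Nd5 of complex I, mt-Cyb of complex III, mt-Co1, mt-Co2 and mt-Co3 of complex IV, and mt-Atp6 of the ATP synthase. They were chosen by their Ensembl identifiers out of 32662 identifiers in the deposited tables. The choice set no rule on measured values, but earlier results of these data were known when it was made. The RNA came from trigeminal ganglia (TG), where the sensory neurons that serve the head have their cell bodies, and dorsal root ganglia (DRG), where those that serve the trunk and limbs have theirs. The 6 donors were naive male Wistar Han rats (R101 to R106), aged 10 weeks, kept on a reversed light cycle and killed 2 weeks after arrival. All were perfused with cold saline under pentobarbital with lidocaine. Each rat gave 1 TG and 1 DRG library of poly(A)-selected RNA, so there were 12 libraries. Neither the spinal levels of the DRG nor the number of ganglia per library is stated in the labels. The tissue labels were not checked against neuronal or glial markers, because the tables do not pair identifiers with symbols.

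The mitochondrial genome is a small circle present in many copies per cell. It is transcribed as long precursors that are cut into single mRNAs, most of which receive short poly(A) tails, so their steady-state levels also depend on how long each one lasts. The proteins they encode form the membrane core of the respiratory chain, which passes electrons to oxygen and pumps protons, and of the ATP synthase, which uses the proton gradient. Sensory neurons need this supply for the ion pumps of very long axons. Nuclear genes provide the remaining subunits. Those, the other mitochondrial genes and the regulators of mitochondrial transcription were not analysed here.

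Libraries held 11876597 to 17184211 counts in genes, and every member had at least 2074 counts in every library, so counting error was small beside the spread between rats. Reads outside annotated genes made up 20.5% to 21.0% of all reads for TG and 15.7% to 16.9% for DRG. Reads aligned to several places made up 11.4% to 11.9% for TG and 12.3% to 13.2% for DRG. Reads of mitochondrial genes that also match copies of mitochondrial DNA in the nuclear genome fall in the last class and are not counted. Their part in the results was not tested. Since the RNA was selected by its poly(A) tails, a longer tail and a higher level of an mRNA cannot be told apart.

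Mitochondrial mRNAs took a slightly larger share of the counts in TG than in DRG. Together the 10 genes held 4.81% ± 0.28 of the counts in genes in TG (SD, n = 6) and 4.17% ± 0.15 in DRG. In TG the lowest share was 4.32%, the median 4.84% and the highest 5.07%. In DRG these were 3.97%, 4.17% and 4.43%. The groups overlapped, because the lowest TG library (rat R106) lay under the highest DRG library (rat R103). Within each animal, however, TG was above DRG in 6 of 6 rats, by 0.34 to 0.998 percentage points, with a mean of 0.64 ± 0.26. Rat R106 had the lowest share of all rats in both ganglia, at 4.32% and 3.97%. The summed share is given as a description, with no test. Taken over all reads in the file, rows without a gene included, the shares were 3.18% ± 0.175 and 2.90% ± 0.099, and the difference was 0.28 percentage points, again in 6 of 6 rats. In bulk tissue, more cells of a type that is rich in mitochondria and more mitochondrial RNA per cell cannot be told apart.

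**Figure D1:**
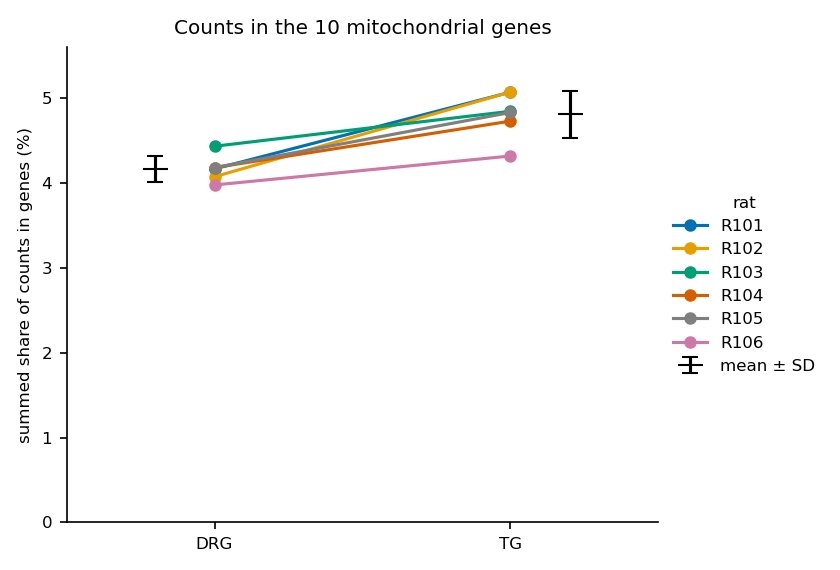
Summed share of the counts in genes held by the 10 mitochondrial genes (y axis, %), in DRG and TG (x axis). Each coloured line joins the 2 libraries of 1 rat, and black bars are the mean ± SD of 6 libraries. All 6 lines go up from DRG to TG, while the lowest TG library (4.32%) lies under the highest DRG library (4.43%).

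Gene by gene, the differences were small and in 1 direction. Levels are CPM, a gene's counts divided by the library's total and set to a common size, on libraries scaled with TMM factors, and log2 fold changes are TG over DRG. Of the 10 genes, 8 were higher in TG by edgeR's quasi-likelihood test (adjusted over all 14554 genes tested, threshold 0.05), and 0 were lower. Of all tested genes 57.3% were called, and 29.9% of all tested genes were called higher in TG. The median log2 fold change of the members was 0.19, against 0.0089 over all tested genes. All 10 genes passed the filter on low counts. For 9 genes, TG was higher in 6 of 6 rats, which held for 28.1% of all tested genes. The exception was mt-Nd3, higher in 5 of 6. No gene (0 of 10) had its lowest TG library above its highest DRG library, against 19.3% of all tested genes. For every member, then, the ranges of the tissues overlapped while most animals showed the same direction.

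Each rat gave both a TG and a DRG library. With the rat as a block, all 10 members were higher in TG (edgeR, adjusted p between 4e-05 and 0.021), where 31.5% of all tested genes were called higher in TG. The block added mt-Nd3 and mt-Co1 to the calls and left the fold changes almost as they were. Its intervals were narrower for every member but mt-Nd2.

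**Figure D2:**
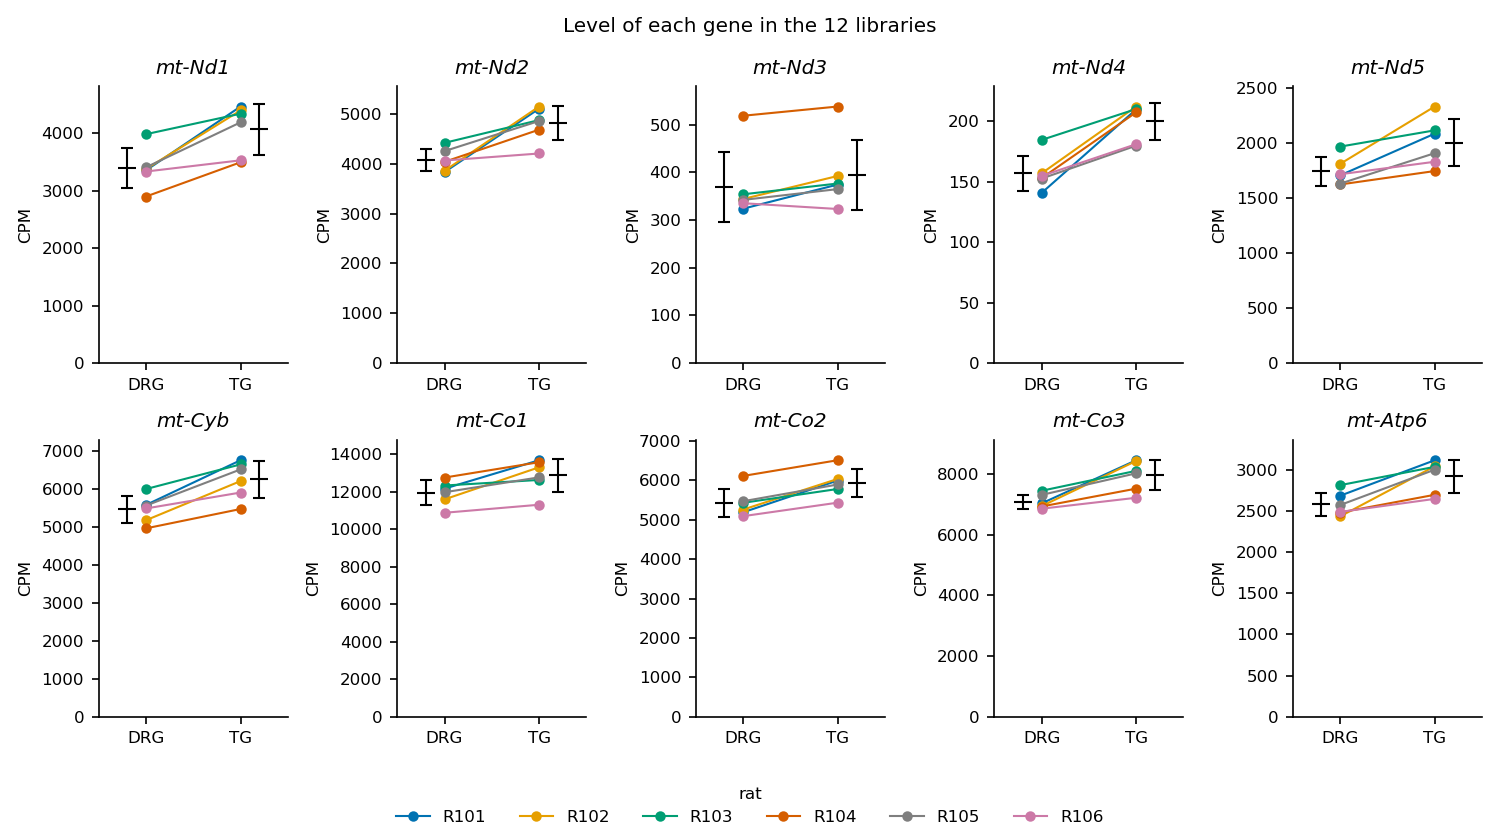
Level of each of the 10 genes (y axes, CPM on TMM-scaled libraries, each panel with its own scale from 0) in DRG and TG (x axes). Lines join the 2 libraries of a rat and black bars are the mean ± SD of 6 libraries. Rat R104 lies far above the other rats for mt-Nd3 in both ganglia (519 CPM in DRG and 538 CPM in TG) and below them for mt-Nd1 and mt-Cyb.

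Complex I, or NADH dehydrogenase, is the entry point of electrons from NADH, and its mitochondrially encoded subunits form the proton-pumping membrane arm. The largest difference among the members was that of mt-Nd4 (ENSRNOG00000029707). Its level in TG was 180 CPM at the lowest, 209 at the median and 212 at the highest, and in DRG it was 141, 154 and 184 CPM. The overlap came from the DRG library of rat R103, at 184 CPM, which exceeded the TG libraries of rats R105 (180 CPM) and R106 (181 CPM). The log2 fold change was 0.35 ± 0.062 (SE; edgeR, adjusted p = 0.00021), or 1.27 times the DRG level, with a 95% interval of 16.2% to 39.7% higher. mt-Nd4 also had the lowest mean level of all members in both ganglia. How many of its reads were left out for aligning to several places was not tested.

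mt-Nd1 (ENSRNOG00000030644) encodes a subunit at the base of the membrane arm, close to where ubiquinone binds. In TG it ranged from 3495 CPM over a median of 4264 to 4464, and in DRG from 2898 over 3365 to 3983. Rat R104 was the lowest in both ganglia and rat R103 the highest in DRG. The log2 fold change was 0.26 ± 0.081 (SE; edgeR, adjusted p = 0.013). This call was lost when rat R101 (adjusted p = 0.055) or rat R102 (adjusted p = 0.063) was left out, with fold changes of 0.23 in both cases, and it was kept with the rat as a block (adjusted p = 0.00023).

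mt-Nd2 (ENSRNOG00000031033), which encodes a proton-pumping subunit, was at 4206, 4867 and 5148 CPM in TG (lowest, median, highest) and at 3832, 4051 and 4419 CPM in DRG. Only the TG library of rat R106 lay inside the DRG range. Its log2 fold change was 0.24 ± 0.048 (SE; edgeR, adjusted p = 0.00048).

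mt-Nd5 (ENSRNOG00000029971) encodes the proton-pumping subunit at the far end of the arm. It was at 1743, 1994 and 2329 CPM in TG and at 1621, 1709 and 1965 CPM in DRG. TG exceeded DRG by 0.20 ± 0.068 on the log2 scale (SE; edgeR, adjusted p = 0.022). The tissues overlapped over much of their range. The call did not hold without a filter on low counts, without rat R101, R102 or R105, without the DRG library of rat R104 or R105, or without the TG library of rat R103, where the adjusted p lay between 0.0503 and 0.079.

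mt-Nd3 (ENSRNOG00000033615), a small subunit with a loop that moves between the active and the resting form of the enzyme, did not pass. It was at 323, 376 and 538 CPM in TG and at 324, 343 and 519 CPM in DRG. The highest library of each ganglion was that of rat R104, and the other 5 rats lay between 323 and 393 CPM in TG and between 324 and 354 CPM in DRG. The log2 fold change was 0.09 ± 0.15 (SE; edgeR, adjusted p = 0.61), with a 95% interval from -0.23 to 0.42. It was -0.01 when only the TG library of rat R104 was left out. With the rat as a block it was 0.10 ± 0.033 (SE; adjusted p = 0.021), and the call did not hold in that fit without rat R101, R102 or R103.

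Complex III passes electrons from ubiquinol to cytochrome c. Its only mitochondrially encoded subunit is cytochrome b, the product of mt-Cyb (ENSRNOG00000031766), which holds the quinone-binding sites. mt-Cyb was at 5465, 6353 and 6748 CPM in TG and at 4956, 5518 and 5990 CPM in DRG. The lowest library of each ganglion was that of rat R104. The log2 fold change was 0.20 ± 0.054 (SE; edgeR, adjusted p = 0.0057).

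Complex IV, cytochrome c oxidase, reduces oxygen to water, and its 3 mitochondrially encoded subunits form its core. mt-Co1 (ENSRNOG00000034234) encodes the subunit that binds oxygen. It was at 11318, 13048 and 13694 CPM in TG and at 10889, 12080 and 12768 CPM in DRG. The 95% interval of its log2 fold change, 0.11 ± 0.047 (SE), ran from 0.01 to 0.21, but the gene did not pass after adjustment (edgeR, adjusted p = 0.063). It passed with the rat as a block (adjusted p = 0.0041), without rat R106 (adjusted p = 0.011), without the TG library of rat R106 (adjusted p = 0.0085), without the DRG library of rat R104 (adjusted p = 0.045), with upper-quartile factors (adjusted p = 0.0467) and on total counts (adjusted p = 0.014). With the block it also passed without each rat in turn.

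mt-Co2 (ENSRNOG00000030371) encodes the subunit that receives electrons from cytochrome c. It was at 5430, 5942 and 6507 CPM in TG and at 5088, 5340 and 6108 CPM in DRG, and rat R104 was the highest in both. The log2 fold change was 0.13 ± 0.047 (SE; edgeR, adjusted p = 0.025). The call was lost in 9 alternatives that left out a rat (R101, R102, R103 or R105) or a library (DRG of R101, R102 or R106, TG of R101 or R104), with adjusted p between 0.0528 and 0.088.

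mt-Co3 (ENSRNOG00000030700) encodes a core subunit without metal centres. It was at 7222, 8069 and 8459 CPM in TG and at 6861, 6991 and 7452 CPM in DRG. Only the TG library of rat R106 lay inside the DRG range. The log2 fold change was 0.17 ± 0.040 (SE; edgeR, adjusted p = 0.0020).

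The ATP synthase turns the proton gradient into ATP, and mt-Atp6 (ENSRNOG00000031979) encodes the subunit through which protons enter the rotor. Its gene overlaps that of another small subunit, and reads that overlap more than 1 gene were not counted. mt-Atp6 was at 2646, 3018 and 3115 CPM in TG and at 2433, 2529 and 2812 CPM in DRG. The TG libraries of rats R104 and R106 lay inside the DRG range and those of the other 4 rats above it. TG exceeded DRG by 0.18 ± 0.047 on the log2 scale (SE; edgeR, adjusted p = 0.0035).

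The size of the shift varied between animals. Rat R106 showed the smallest within-rat difference for 7 of the 10 genes, with log2 TG over DRG from -0.05 for mt-Nd3 and 0.05 for mt-Nd2 to 0.11 for mt-Cyb among those 7. Rat R103 showed the smallest for the other 3, mt-Nd4 (0.19), mt-Co1 (0.03) and mt-Co2 (0.09). The largest difference was always that of rat R101 or R102, from 0.20 for mt-Co1 to 0.58 for mt-Nd4.

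**Figure D3:**
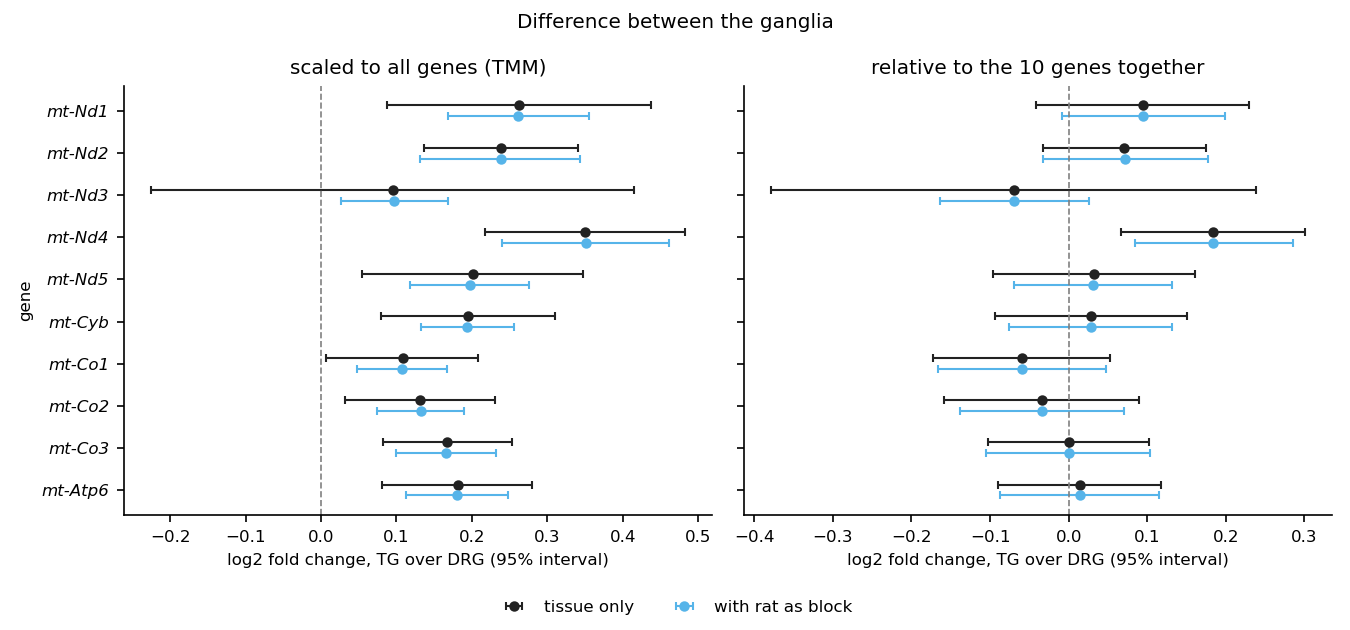
Log2 fold change of each gene, TG over DRG, with its 95% interval (x axes), for the 10 genes (y axis), scaled to all genes on the left and to the summed counts of the 10 genes on the right. Black points come from the fit with tissue only and blue points from the fit with the rat as a block. On the left all estimates lie above 0, from 0.09 to 0.35, and on the right mt-Nd4 alone has an interval above 0.

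Whether TG and DRG also differed in the make-up of their mitochondrial mRNA was examined by scaling each library to the summed counts of the 10 genes. In this scaling 59.2% of all tested genes were called, 16.0% of all tested genes were called higher in TG, and the median log2 fold change of all tested genes was -0.155. Among the members 1 of 10 passed. mt-Nd4 made up 0.42% ± 0.024 of the summed counts in TG libraries and 0.37% ± 0.026 in DRG libraries (SD, n = 6), and its share was larger in TG in 6 of 6 rats. Its log2 fold change relative to the sum was 0.18 ± 0.056 (SE; edgeR, adjusted p = 0.0084). Without rat R104 it was 0.16 and narrowly missed the threshold (adjusted p = 0.0505). The other 9 genes lay between -0.07 (mt-Nd3) and 0.09 (mt-Nd1), with adjusted p of 0.22 or more (edgeR), or 0.1 or more with the rat as a block. Their 95% intervals without the block ran from -0.38 to 0.24 for mt-Nd3, the widest, and from -0.10 to 0.10 for mt-Co3. As a share of the sum, mt-Nd1 was higher in TG in 6 of 6 rats, and mt-Nd3 and mt-Co1 were lower in 6 of 6. edgeR draws part of its spread estimate from all tested genes. With the rat as a block the SE lay between 0.046 and 0.052 for every member. The SD of the within-rat log2 differences ran from 0.017 (mt-Co3) to 0.106 (mt-Nd4). A small, steady shift of a member could therefore have been missed.

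Grouped by complex, the 5 complex I genes held 24.2% ± 0.80 of the summed counts in TG and 23.0% ± 0.94 in DRG, and were higher in TG in 5 of 6 rats. The 3 complex IV genes held 56.5% ± 1.51 and 57.9% ± 1.63 and were lower in TG in 6 of 6 rats. These differences were about as large as the SD between rats, which does not use the pairing of the ganglia. Within rats, the log2 difference, TG over DRG, was 0.069 ± 0.051 for complex I and -0.036 ± 0.019 for complex IV (mean ± SD of 6 rats). Both are given without a test. The genes of a complex did not all move alike. In complex IV, the share of mt-Co1 was higher in TG in 0 of 6 rats, that of mt-Co2 in 1 and that of mt-Co3 in 3. In complex I, the share of mt-Nd3 was higher in TG in 0 of 6 rats, and those of the other genes in 5 or 6. Counts were not divided by transcript length, so the shares do not rank the genes by number of molecules.

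Ratios of 2 transcripts within a library do not depend on the scaling. Of the 45 ratios between members, 22 differed in the same direction in 6 of 6 rats, and in 0 of 45 did the tissues separate without overlap. Most of the 22 involve mt-Nd3, mt-Nd4 or mt-Co1. No count over pairs of other genes was made. The ratios share genes and are not independent. The ratio of mt-Nd4 to mt-Co1 was 0.0155 ± 0.0009 in TG libraries against 0.0132 ± 0.0013 in those of DRG (SD, n = 6), and exceeded DRG within a rat by 0.14 to 0.41 on the log2 scale. The ratio of mt-Nd1 to mt-Co1 was 0.316 ± 0.0305 and 0.284 ± 0.0327, and that of mt-Cyb to mt-Co1 was 0.486 ± 0.0465 and 0.457 ± 0.0396, both higher in TG in 6 of 6 rats. Within complex IV, mt-Co1 over mt-Co3 was lower in TG in 6 of 6 rats, at 1.62 ± 0.094 against 1.69 ± 0.089. The ratios printed here were picked after their values were seen. Of the 9 ratios that involve mt-Co1, 7 put mt-Co1 relatively lower in TG in 6 of 6 rats. The exceptions were mt-Nd2 over mt-Co1, higher in TG in 5 of 6 rats (0.374 ± 0.0155 against 0.342 ± 0.0241), and mt-Nd3 over mt-Co1, higher in 2 of 6 (0.0306 ± 0.0045 against 0.0308 ± 0.0050). Among the 4 ratios given first, the difference of the means exceeded the SD between rats for mt-Nd4 and was about as large as or smaller than that SD for mt-Nd1, mt-Cyb and mt-Co3. That SD does not use the pairing. Within rats, the log2 differences of these 4 ratios, in the same order, were 0.244 ± 0.111, 0.155 ± 0.081, 0.087 ± 0.036 and -0.059 ± 0.034 (mean ± SD, n = 6).

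One animal had a different set of transcript ratios, and the difference was present in both of its ganglia. The examination by rat was chosen after the values had been seen. In rat R104, mt-Nd3 was at 538 CPM in TG, where the other 5 rats lay between 323 and 393, and at 519 CPM in DRG, where they lay between 324 and 354. On the log2 scale it was 0.56 above the mean of the other rats in TG and 0.61 above it in DRG. mt-Co2 was 0.16 and 0.21 above that mean. mt-Nd1 was 0.25 below it in TG and 0.27 below it in DRG, mt-Cyb 0.23 and 0.16 below, and mt-Nd5 0.23 and 0.12 below. For these 5 of the 10 genes, rat R104 lay outside the range of all other rats on the same side in both ganglia, which was so for 7.24% of all tested genes in this rat. Rat R106 was the lowest in both ganglia for 3 genes, mt-Co1, mt-Co2 and mt-Co3 (8.92% of all tested genes lay outside on the same side in that rat), and the other 4 rats had 0 such genes. In those 4, R101, R102, R103 and R105, the shares of all tested genes were 6.84%, 10.3%, 7.60% and 6.97%.

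The total was not unusual in rat R104. Its summed share was 4.73% in TG and 4.18% in DRG, inside the range of the other rats in each ganglion. Relative to the summed counts, 7 of the 10 genes (mt-Nd1, mt-Nd3, mt-Cyb, mt-Co1, mt-Co2, mt-Co3 and mt-Atp6) lay outside the range of the other rats on the same side in both ganglia, against 4.51% of all tested genes. Rats R101, R102, R103 and R106 had 1 such gene each and rat R105 had 0, where the shares of all tested genes were 6.20%, 5.85%, 7.25%, 24.2% and 4.52%. The shares of the 10 members sum to a fixed whole, so a rise of some lowers others. Other tested genes have no such limit, so the counts over all tested genes are not a like measure. Complex IV genes together made up 59.5% of the sum in TG and 60.8% in DRG of this rat, above all other libraries of the same ganglion, whose highest were 56.3% and 58.1%. This came from mt-Co1 and mt-Co2, whose shares were above those of all other rats in both ganglia. The share of mt-Co3 was below them, at 16.2% in TG and 16.3% in DRG. The shift was therefore one of proportions among the transcripts.

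**Figure D4:**
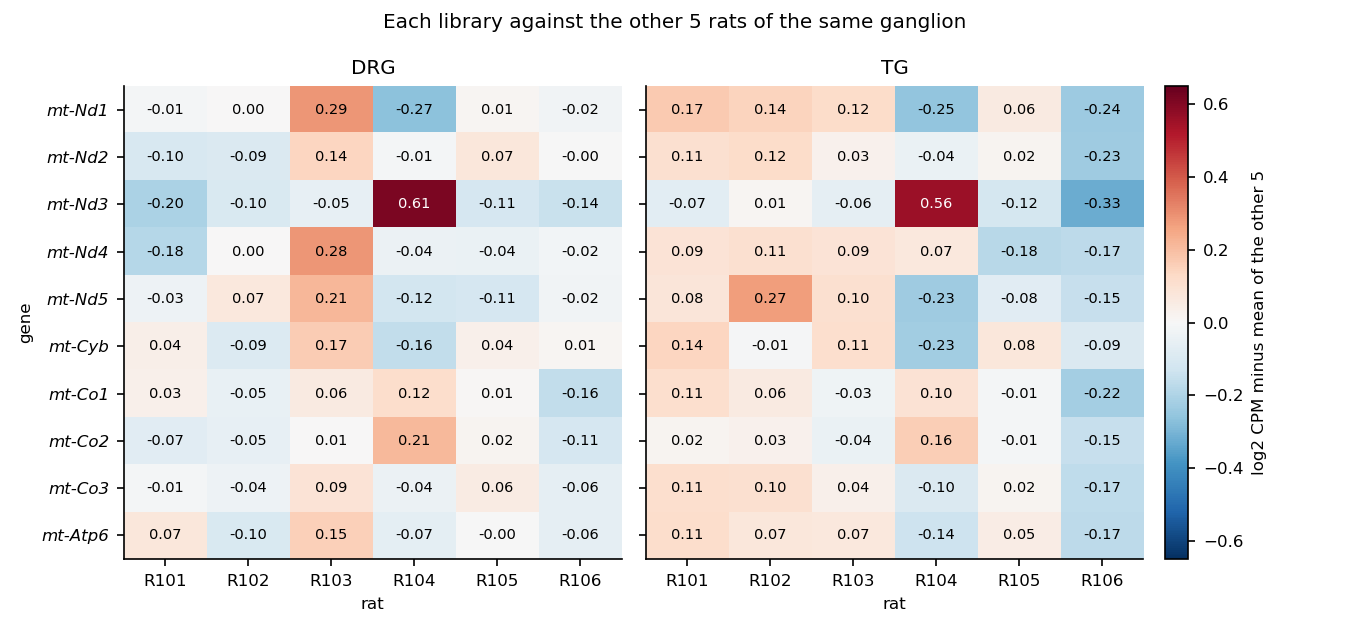
Log2 CPM of each gene (y axis) in each library minus the mean of the other 5 rats of the same ganglion, by rat (x axes), for DRG on the left and TG on the right. Red marks a higher and blue a lower level. The column of rat R104 has much the same pattern in both panels, with mt-Nd3 at 0.61 and 0.56 and mt-Nd1 at -0.27 and -0.25. The sign differs for mt-Nd4, at -0.04 and 0.07.

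Ratios showed the same split without any scaling. mt-Nd1 over mt-Co2 was 0.537 in TG of rat R104 and 0.65 to 0.751 in the other rats, and 0.475 against 0.623 to 0.734 in DRG. mt-Co2 over mt-Co3 was 0.865 against 0.708 to 0.752 in TG and 0.881 against 0.728 to 0.756 in DRG. mt-Nd3 over mt-Co3 was 0.072 against 0.044 to 0.047 in TG and 0.075 against 0.046 to 0.050 in DRG. These 3 ratios were picked after their values were seen. Of all 45 ratios, 29 put rat R104 outside the other rats on the same side in both ganglia. The next highest count was 9 (rat R103), and the remaining rats had 1 to 4. Pairs of other genes were not counted. By contrast, mt-Nd4 over mt-Co1 in rat R104 was 0.015 in TG and 0.012 in DRG, within the range of the other rats.

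**Figure D5:**
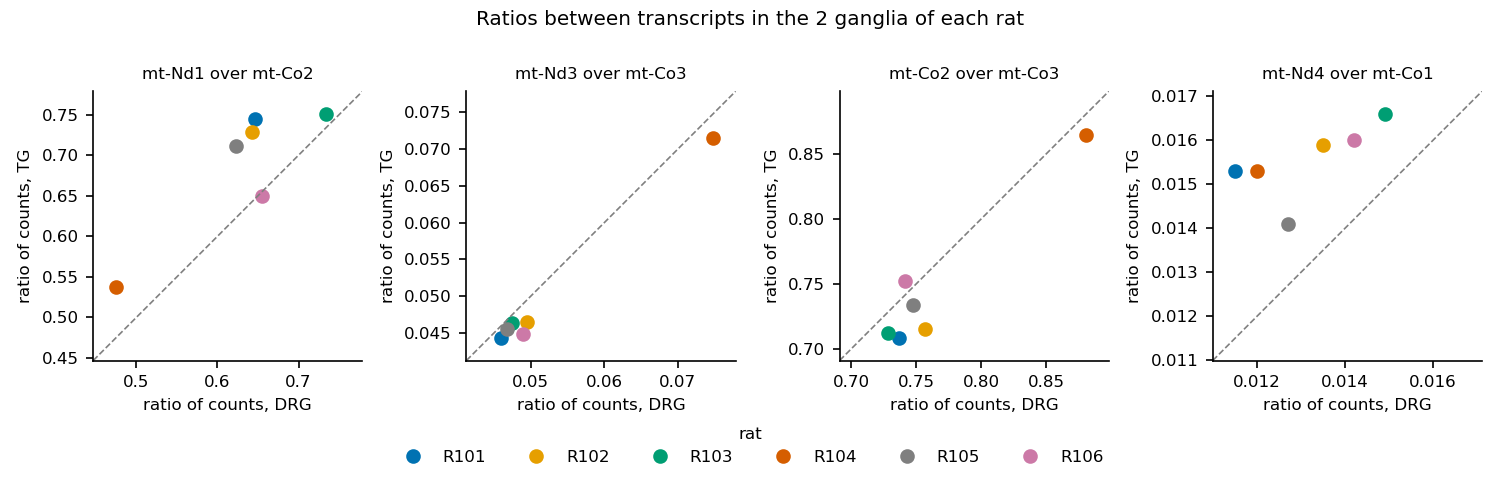
Ratio of the counts of 2 transcripts in DRG (x axes) and TG (y axes), 1 point per rat, for 4 ratios; the dashed line marks equal ratios. Rat R104 stands apart from the other 5 rats in the first 3 panels (mt-Nd1 over mt-Co2 is 0.475 and 0.537), while all 6 points lie above the line for mt-Nd4 over mt-Co1.

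The rat term was then tested over all genes in the fit with rat and tissue. Of the 10 members, 2 differed between rats (edgeR, F test of the rat term), against 3.66% of all tested genes: mt-Nd3 (adjusted p = 3e-05) and mt-Cyb (adjusted p = 0.033). mt-Co2 (adjusted p = 0.052), mt-Nd5 (adjusted p = 0.053), mt-Co1 (adjusted p = 0.069) and mt-Nd1 (adjusted p = 0.073) lay just above the threshold. Without rat R104, 0 of the 10 passed in edgeR (4 at an unadjusted p under 0.05), and mt-Nd3 had an adjusted p of 0.48. Rat R104 had been singled out on these same libraries, so this loss is no separate support. The number of members that passed was 5 without rat R101, 6 without rat R102 and 1 without rat R103, and mt-Nd3 was among them each time. It was 2 without rat R105 and 3 without rat R106. The shares of all tested genes in the fits without a rat are not given here. Relative to the summed counts, mt-Nd3 alone passed (adjusted p = 5e-06, against 5.15% of all tested genes), and 0 of 10 without rat R104 (0 at an unadjusted p under 0.05). No other tool was run for the rat term. The libraries of rat R104 held 12693968 (TG) and 15986632 (DRG) counts in genes, within the range of the other libraries. Its TG library had the highest share of reads aligned to several places in TG, 11.9% against at most 11.8% in the others, and its DRG library had 12.8%, inside the DRG range. The part of such reads, or of any sequence difference between the animals, in these ratios was not tested.

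Among 9908 other genes with a mean of at least 10 CPM, those whose level followed the summed members most closely over the 12 libraries, each centred on its tissue mean, were ENSRNOG00000011613 (Pearson r = 0.93) and ENSRNOG00000005736 (r = 0.91). These are the 2 highest of many correlations, over libraries that share rats, and are given as a description. Between the tissues they went in opposite directions. ENSRNOG00000011613 averaged 129 CPM (SD 9.24, n = 6) in TG against 108 CPM (SD 3.25) in DRG. Its TG over DRG difference on the log2 scale was 0.25 ± 0.044 (SE; edgeR, adjusted p = 0.00013). ENSRNOG00000005736 averaged 133 CPM (SD 4.70) in TG against 153 CPM (SD 3.23) in DRG, and that difference was -0.20 ± 0.030 (SE; edgeR, adjusted p = 3.3e-05).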

How the data were processed

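For each library the authors deposited the raw read counts of all genes. STAR and HTSeq with the rat build Rnor_6.0 are named, per the submitters' processing notes. Their versions, the annotation release and whether counting used strand: not given in the sources used here. Without strand, reads of a gene and of its antisense partner cannot be told apart. The 5 closing rows of reads without a gene, which held 29.8% to 34.3% of the reads in a file, were left out of library sizes and tests.

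The tests used edgeR 4.0.16 under R 4.3.3: filterByExpr (14554 genes), TMM factors, and the robust quasi-likelihood test with tissue as the only term, Benjamini-Hochberg adjusted over all tested genes, threshold 0.05. Standard errors are the log2 fold change over the square root of F. A second fit took the summed counts of the 10 genes as library sizes. The edgeR tests of tissue (without the block) and of the rat term were tested on simulated counts. The other fits were not. Alternatives were DESeq2 1.42.0, limma 3.58.1 (voom), other scalings, no filter, and leaving out rats or libraries. Leaving out 1 library or rat assumes equal spread of the rest.

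Members and lists were chosen with earlier results of these data known. All 10 members are named, and the 2 genes most like them by correlation (5 were planned, 2 where identifiers lack symbols). None (0) of the identifiers matched the reference table (RefSeq, GRCr8), which also holds 0 mitochondrial rows. The 19 gene lists fixed by symbol were therefore not used here.

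The labels give both libraries of a number the same rat. Their deviations from the tissue means correlated across genes with r of 0.23 to 0.34, against -0.14 to 0.10 for different rats. Between libraries of a tissue, the chi-square per degree of freedom was 3.97 to 13.3, where sampling noise gives about 1, and none was treated as a copy. P-values of the fits with tissue only set a difference against the spread between libraries of a tissue. Such fits treat the 12 libraries as independent, though both ganglia came from each rat. With the rat as a block, the spread is that of the within-rat differences, and the rat term is set against the same spread. edgeR shares part of each spread estimate over all tested genes. All p-values rest on these 6 rats.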

Additional observations from a re-analysis of the deposited data

Results flagged for a closer look

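Of 42 sets of 6 libraries (the CPM and the share of the summed counts of each gene in each ganglion, and the summed share), 10 had a library whose gap to its nearest neighbour exceeded Dixon's 95% critical value as a part of the whole range. Chance gives about 1 in 20, and the sets are not independent. Rat R104 accounts for 9 of the 10. Its mt-Nd3 level was 538 CPM in TG (nearest other 393) and 519 CPM in DRG (nearest other 354). Its mt-Co2 level in DRG was 6108 CPM (nearest other 5466). As a share of the summed counts, its mt-Nd3 was 1.16% in TG (nearest other 0.793%) and 1.221% in DRG (nearest other 0.84%), and its mt-Co2 in DRG was 14.4% (nearest other 12.8%). In TG of the same rat, mt-Co1 was 29.3% (nearest other 27.3%), mt-Co3 16.2% (nearest other 16.8%) and mt-Atp6 5.80% (nearest other 6.14%). The last set was mt-Nd4 in DRG, where the library of rat R103 was at 184 CPM (nearest other 157).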

How the results depend on the processing

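In all 32 alternatives the log2 fold changes of mt-Nd2, mt-Nd4, mt-Cyb, mt-Co3 and mt-Atp6 stayed above 0 and past the threshold, with adjusted p of at most 0.027. Of the 10 members, 8 were called; 7 to 10 were called in 8 fits with another scaling, filter, tool or the rat as a block. The replicate block gave 10, no filter on low counts gave 7 (without mt-Nd5, adjusted p = 0.0547), and DESeq2 and limma-voom gave 8 each. Leaving out a rat gave 5 to 9 and leaving out a library 7 to 9. The lowest, 5, came without rat R101 or R102, where mt-Nd1, mt-Nd5 and mt-Co2 were not called. With the replicate block and a rat left out, a combination added after seeing the data, 9 or 10 were called. Over all tested genes, 8341 were called in either direction in the main fit. With another scaling, filter, tool or the rat as a block, 8137 to 8881 genes were called. Leaving out a rat gave 7703 to 7903 genes and leaving out a library 7969 to 8209. The block with a rat left out gave 8298 to 8510. The numbers of genes tested in these fits are not given here. The number of members called relative to the summed counts was 1 with the replicate block, with limma-voom and against the other 9 genes. It was 0 to 1 without a rat (0 without rat R104 in edgeR, 1 at an unadjusted p under 0.05). The replicate block changed no other call. The difference in summed share was 0.28 percentage points over all reads in the file, where the denominator includes reads outside genes, 0.74 without the 10 most abundant other genes, and 0.57 to 0.70 without a rat. The number of ratios with 1 direction was 22 to 31 without a rat. It could not fall under the 22 of all 6 rats, because a direction shared by all stays shared when a rat is removed. It is therefore no check of that number. The members that differed between rats numbered 0 to 6 without a rat, and 0 to 1 relative to the summed counts. Tests of other genes of the pathway were not run, as identifiers had no symbols. Depth was no limit for these genes. The width of the intervals came from the spread between the libraries of 6 rats and from the spread that edgeR shares over all tested genes.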
